A study of Mus musculus with 6 samples.

Results

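The transcriptome of gastrocnemius muscle from control mice was described from RNA-seq of 3 libraries labelled *Sirt6* flox/flox, out of 6 libraries in the series. The controls were chosen by their labels alone. They carry the floxed *Sirt6* allele without a Cre driver, and the labels name the strain as C57BL/6. The reporting summary names the floxed line as one of mixed strain, and the methods name a different stock of it. The methods describe males, and the labelled age is 20 weeks. The other 3 libraries, labelled *Myl1-Cre*; *Sirt6* flox/flox, carry a Cre under the myosin light chain 1 promoter, which is active mainly in fast fibres, and enter below only in the check of *Sirt6*. Control libraries 1, 2 and 3 are numbered as the labels number them, and the labels do not say whether each came from a separate animal. All values below are levels in TPM, a unit that scales each gene's reads by the gene's length and then to a fixed sum in each library. SDs are over these 3 libraries, and no test between groups was made.

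Gastrocnemius is a mixed limb muscle of the calf in which fast fibres predominate. A muscle fibre contracts when calcium released from the sarcoplasmic reticulum binds troponin on the actin thin filament and lets the myosin thick filament pull. Fibres come in slow type I and fast types IIa, IIx and IIb, each with its own myosin heavy chain (*Myh7*, *Myh2*, *Myh1* and *Myh4*) and with matching forms of the light chains, troponins and calcium pump. Slow and IIa fibres rely on mitochondria, myoglobin and fat, whereas IIb fibres rely on glycogen, glycolysis and creatine phosphate.

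The tissue label was checked against defining markers. All 3 fixed muscle markers were among the 10 most abundant genes of every library. *Acta1*, the actin of the skeletal thin filament, stood at 36212, 37102 and 42607 TPM in libraries 1, 2 and 3. *Ckm*, muscle creatine kinase, stood at 28444, 27359 and 36538 TPM. *Myh4*, the IIb myosin heavy chain, stood at 21117, 20494 and 30694 TPM. Of the heart markers, *Nppa* and *Myl7* had 0 counts in the 3 libraries, which allows up to 3 counts in each. The third, *Myh6*, the alpha heavy chain of heart, was at 24.6, 19.2 and 0.379 TPM; it neighbours *Myh7*, shares 11.4% of its 100-base windows with it, and reads could have been split between them. Liver and skin markers summed to under 1 TPM in every library. The check of the targeted gene went against the group labels: *Sirt6* was at 3.90, 2.93 and 3.25 TPM in the controls, below its 9.62, 8.69 and 7.75 TPM in the libraries labelled with Cre. A value per gene does not show which exons its reads came from, so the deletion itself was not tested. The values below are those of the libraries labelled *Sirt6* flox/flox.

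The libraries held 44845763, 44938927 and 63016899 counts on genes, so library 3 was the deepest. Of 24532 genes in the table, 14371 had a count in all 3 libraries and 7989 in none, and 11475 had a mean of at least 1 TPM. Library 3 stood apart from the other 2. Libraries 1 and 2 differed by at least 2-fold in 160 of the 11475 genes, libraries 1 and 3 in 827, and libraries 2 and 3 in 862, on TPM + 1. Results are therefore given by library, and the closing section gives shares, counts and coefficients of variation with each library left out in turn. In bulk RNA such as this, fewer cells or fibres of a type and less of its RNA in each cannot be told apart.

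The promoters of the 3 muscle markers and of 2 slow fibre genes described below, *Myh7* (the slow myosin heavy chain) and *Tnnc1* (slow troponin C), show the kind of sequence that precedes these genes. Each line runs 5′ to 3′ over the 250 bases before the annotated start, from NCBI RefSeq on GRCm38.p6. Capitals mark matches on either strand to TATAAA, to the E-box letters CANNTG and to the CArG box, the binding sequence of serum response factor. A MEF2 site, named for the MEF2 factors of muscle, was also searched and was found in none of the 5. They lie at chr8:123894776-123895025 on the minus strand for *Acta1*, chr7:19410844-19411093 on the plus strand for *Ckm* and chr11:67237562-67237811 on the plus strand for *Myh4*. They lie at chr14:54994627-54994876 on the minus strand for *Myh7* and chr14:31208062-31208311 on the plus strand for *Tnnc1*.
Acta1: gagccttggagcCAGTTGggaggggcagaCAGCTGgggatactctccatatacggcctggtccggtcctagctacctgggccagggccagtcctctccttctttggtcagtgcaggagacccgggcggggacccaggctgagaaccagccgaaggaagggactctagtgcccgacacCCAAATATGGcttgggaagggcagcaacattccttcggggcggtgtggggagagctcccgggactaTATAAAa
Ckm: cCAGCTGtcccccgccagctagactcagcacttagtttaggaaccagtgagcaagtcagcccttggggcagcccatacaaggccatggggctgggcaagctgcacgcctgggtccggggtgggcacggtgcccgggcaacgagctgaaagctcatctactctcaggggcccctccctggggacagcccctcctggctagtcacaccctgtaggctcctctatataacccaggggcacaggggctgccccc
Myh4: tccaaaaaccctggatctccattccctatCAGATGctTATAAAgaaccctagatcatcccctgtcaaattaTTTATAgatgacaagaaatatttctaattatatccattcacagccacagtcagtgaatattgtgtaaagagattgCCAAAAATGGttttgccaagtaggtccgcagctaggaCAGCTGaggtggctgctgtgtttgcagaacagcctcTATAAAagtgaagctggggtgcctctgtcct
Myh7: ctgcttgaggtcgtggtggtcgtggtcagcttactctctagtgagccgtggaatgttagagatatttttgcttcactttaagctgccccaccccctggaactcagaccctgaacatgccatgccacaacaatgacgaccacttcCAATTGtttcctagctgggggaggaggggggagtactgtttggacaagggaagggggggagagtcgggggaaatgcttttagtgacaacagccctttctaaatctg
Tnnc1: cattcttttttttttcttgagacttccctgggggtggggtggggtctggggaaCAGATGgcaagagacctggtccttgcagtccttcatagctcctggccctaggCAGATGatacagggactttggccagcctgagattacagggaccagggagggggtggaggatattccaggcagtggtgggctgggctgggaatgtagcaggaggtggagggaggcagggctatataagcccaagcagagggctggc
The *Acta1* window held a CArG box, 2 E-box matches and 1 match to TATAAA, and the *Myh4* window held a CArG box, 2 E-box matches and 3 matches to TATAAA, 1 of them on the opposite strand. The *Ckm* window held 1 E-box match, as did the *Myh7* window, and the *Tnnc1* window held 2. Over 300-base windows that also take in 50 bases after the start, 38 of the 50 most abundant genes had a RefSeq promoter. The CArG box was in 4 of these 38 (10.5%, Wilson 95% interval 4.17% to 24.1%) and in 425 of all 27025 promoters (1.57%). TATAAA was in 7 of the 38 (18.4%, interval 9.22% to 33.4%, against 14.2% of all promoters). CANNTG was in 30 (78.9%, interval 63.7% to 88.9%, against 72.1%) and a MEF2 site in 1 (2.63%, interval 0.466% to 13.5%, against 0.566%). Of 9121 promoters of genes with a mean of at least 1 TPM, 7.31% held TATAAA and 62.8% CANNTG. The CArG box was in 1.35% of these and a MEF2 site in 0.570%. The intervals cover counting error only, and a match is a description of letters, not a bound site.

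A few genes took up much of the transcriptome. The 10 most abundant genes were the same 10 in each library and held 25.7%, 26.1% and 33.3% of the TPM (28.4% ± 4.33, SD, n = 3). Ordered by mean, they were *Tnnt3*, *Acta1*, *Ckm*, *Tpm1*, *Myl1*, *Tnnc2*, *Myh4*, *Aldoa*, *Tnni2* and *Mylpf*. All but 2 are parts of the sarcomere: *Ckm* regenerates ATP from creatine phosphate, and *Aldoa* is the aldolase of glycolysis. It took 114, 105 and 51 genes to reach 50% of the TPM in libraries 1, 2 and 3, so the transcriptome of library 3 was the most concentrated. Only 71 genes were at 1000 TPM or more in all 3 libraries, and only 12 at 10000 TPM or more.

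The thin filament was the class with the largest share, at 15.7%, 16.0% and 18.96% of the TPM (16.9% ± 1.80). *Tnnt3*, fast troponin T, which ties the troponin complex to tropomyosin, was the most abundant gene of all (chr7:142498771-142516213, GRCm38.p6), at 40621, 41899 and 51432 TPM. *Tpm1*, alpha-tropomyosin, which blocks the myosin sites on actin at rest, was at 26533, 27459 and 37218 TPM. The other fast troponins followed, with *Tnnc2*, the calcium sensor, at 21956, 22714 and 28869 TPM and *Tnni2*, the inhibitory subunit, at 20689, 20283 and 23944 TPM. All of these were highest in library 3, and libraries 1 and 2 were close to each other.

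The thick filament held 7.66%, 7.87% and 9.59% (8.37% ± 1.06). The fast light chains *Myl1* (22036, 22244 and 31594 TPM) and *Mylpf* (18348, 19953 and 23218 TPM) flanked *Myh4* in abundance. *Mybpc2*, fast myosin-binding protein C, followed at 3385, 3472 and 5354 TPM. In the Z-disc, M-band and costamere class, which anchors and aligns the filaments and held 3.24% ± 0.160, *Actn3*, the fast alpha-actinin, was at 4306, 4618 and 6947 TPM. *Tcap*, the cap protein of titin, went the other way, at 4198, 5203 and 2594 TPM. Filaments, Z-disc and costamere together made up 28.5% ± 2.74 of the TPM from 92 genes.

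Calcium handling and excitation held 4.70%, 4.71% and 6.04%. *Atp2a1*, the fast calcium pump SERCA1, was at 17821, 17938 and 21928 TPM. *Pvalb*, parvalbumin, a cytosolic calcium buffer of the fastest fibres, was at 13940, 14027 and 22426 TPM, with a coefficient of variation (CV, the SD over the mean) of 29.0%. *Casq1*, the calsequestrin that stores calcium in fast fibres, was at 2772, 3011 and 3336 TPM. All 3 were highest in library 3, and libraries 1 and 2 were close in *Atp2a1* and *Pvalb*.

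**Figure D1:**
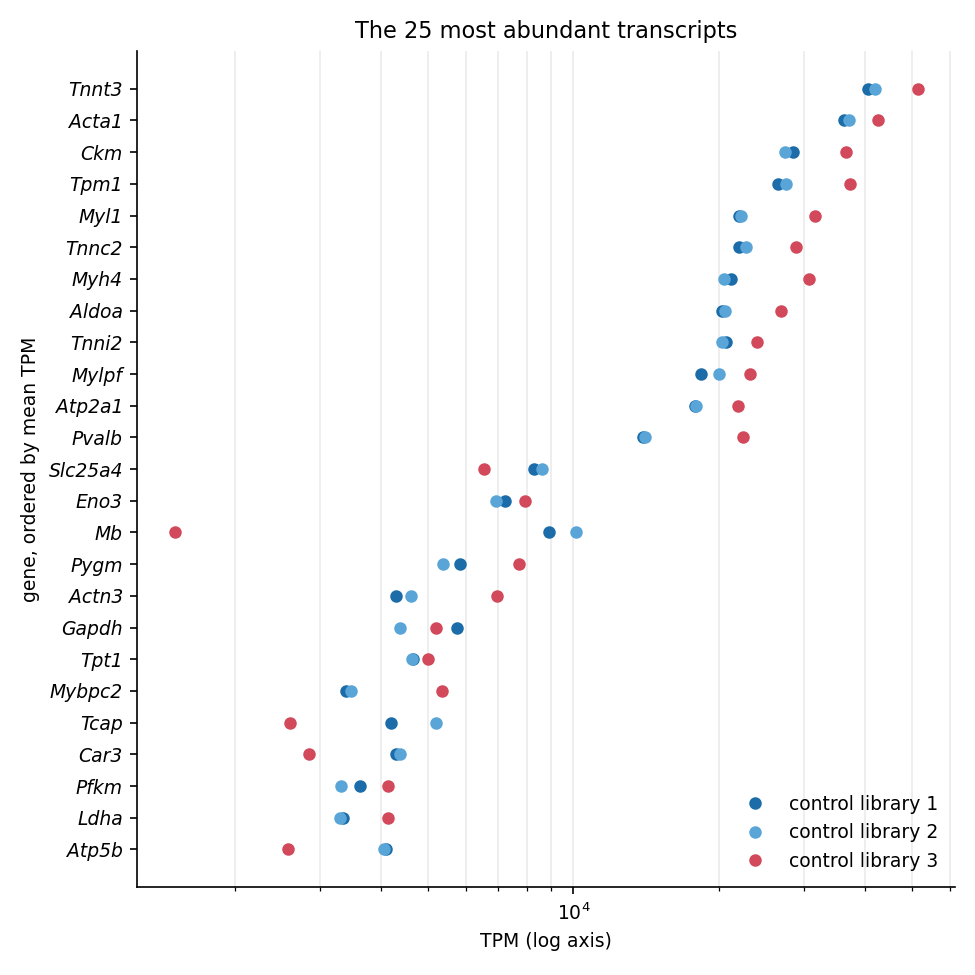
TPM (log axis) of the 25 genes with the highest mean, 1 row a gene and 1 point a control library. The 12 genes at the top are highest in library 3, and *Mb* is the gene whose library 3 point lies farthest below the other 2 (8886, 10113 and 1500 TPM).

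Cytosolic energy supply was carried by few genes. Glycolysis and glycogen held 6.59%, 6.33% and 7.76% of the TPM (6.89% ± 0.762). Their leading members were *Aldoa* (20244, 20578 and 26872 TPM), *Eno3*, muscle enolase (7230, 6909 and 7941 TPM), and *Pygm*, which releases glucose phosphate from glycogen (5819, 5389 and 7728 TPM). The high-energy phosphate class held 3.74% ± 0.392, of which *Ckm* alone was most. *Ckmt2*, the creatine kinase of mitochondria, was instead at 3459, 3773 and 1205 TPM, lower in library 3 than in the other 2, while *Ak1*, the adenylate kinase of the cytosol, varied little (1290, 1275 and 1420 TPM).

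Mitochondrial energy genes encoded in the nucleus held 13.4%, 14.2% and 9.50%. Genes of the mitochondrial genome were not analysed here. Within this group, nuclear-encoded oxidative phosphorylation (OXPHOS) held 7.55%, 7.77% and 5.15% (6.82% ± 1.45). *Atp5b*, the catalytic beta subunit of ATP synthase, was at 4105, 4066 and 2568 TPM, and *Ndufa4*, a small subunit of the respiratory chain, at 2270, 2309 and 1593 TPM. Of the 87 OXPHOS genes with a mean of at least 1 TPM, 85 were lowest in library 3, and 2 differed by 2-fold, against 10.5% of all genes. After TMM, 76 of the 87 were lowest there, and after size factors 73. Of all 11475 genes, 60.9% were lowest in library 3 in TPM, 40.7% after TMM and 37.5% after size factors. The difference was similar over the complexes: libraries 1 and 2 together averaged 1.40 times library 3 for complex I, 1.75 for complex II, 1.56 for complex III, 1.47 for complex IV and 1.52 for ATP synthase. *Slc25a4*, the carrier that exchanges ADP for ATP across the inner membrane, was the most abundant gene of this group, at 8279, 8599 and 6525 TPM.

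Fatty acid genes differed more in summed level than OXPHOS genes, and TCA cycle genes about as much. The fatty acid class held 1.07%, 1.23% and 0.576%, and 45 of its 48 genes were lowest in library 3 (38 after TMM, 37 after size factors), against 60.9%, 40.7% and 37.5% of all genes. *Fabp3*, which carries fatty acids through the cytosol, was at 1441, 1976 and 352 TPM, and *Lpl*, which frees them from lipoproteins at the vessel wall, at 953, 965 and 227 TPM. The TCA cycle class held 1.80%, 2.09% and 1.32%. Its most abundant gene, *Pdk4*, which shuts pyruvate out of the cycle in fasting, was highest in library 2, as the class was, but lowest in library 1, at 2298, 3796 and 2809 TPM.

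Oxygen, redox and metal binding held 2.60%, 2.68% and 1.65%. *Mb*, myoglobin, the oxygen store of oxidative fibres, had the widest spread of the 25 most abundant genes, with 8886, 10113 and 1500 TPM and a CV of 68.2%. *Car3*, carbonic anhydrase of muscle and fat, was at 4301, 4377 and 2848 TPM, and *Fth1*, ferritin heavy chain, at 3024, 2860 and 3388 TPM.

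Protein synthesis took up less and varied little in TPM. Cytosolic ribosomal proteins held 3.90%, 3.68% and 3.96% (3.85% ± 0.147, CV 3.82%), and their members had a median CV of 5.87%, against 14.9% over all 11475 genes. Their summed level in library 3 was 1.05 times the mean of libraries 1 and 2 in TPM, 1.22 after TMM and 1.25 after size factors. The sum over all 11475 genes gave 1.00, 1.13 and 1.16. *Rplp0* and *Rplp1*, of the stalk of the large subunit, were at 1005 ± 25.3 and 1013 ± 43.0 TPM. *Tpt1*, a translation-linked protein and the most abundant gene of its class, was at 4670, 4645 and 4995 TPM. Proteasome and ubiquitin genes held 2.11% ± 0.113, with a median CV of 8.44%. *Trim63*, the atrophy ubiquitin ligase MuRF1, was at 1499, 3453 and 2612 TPM.

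**Figure D2:**
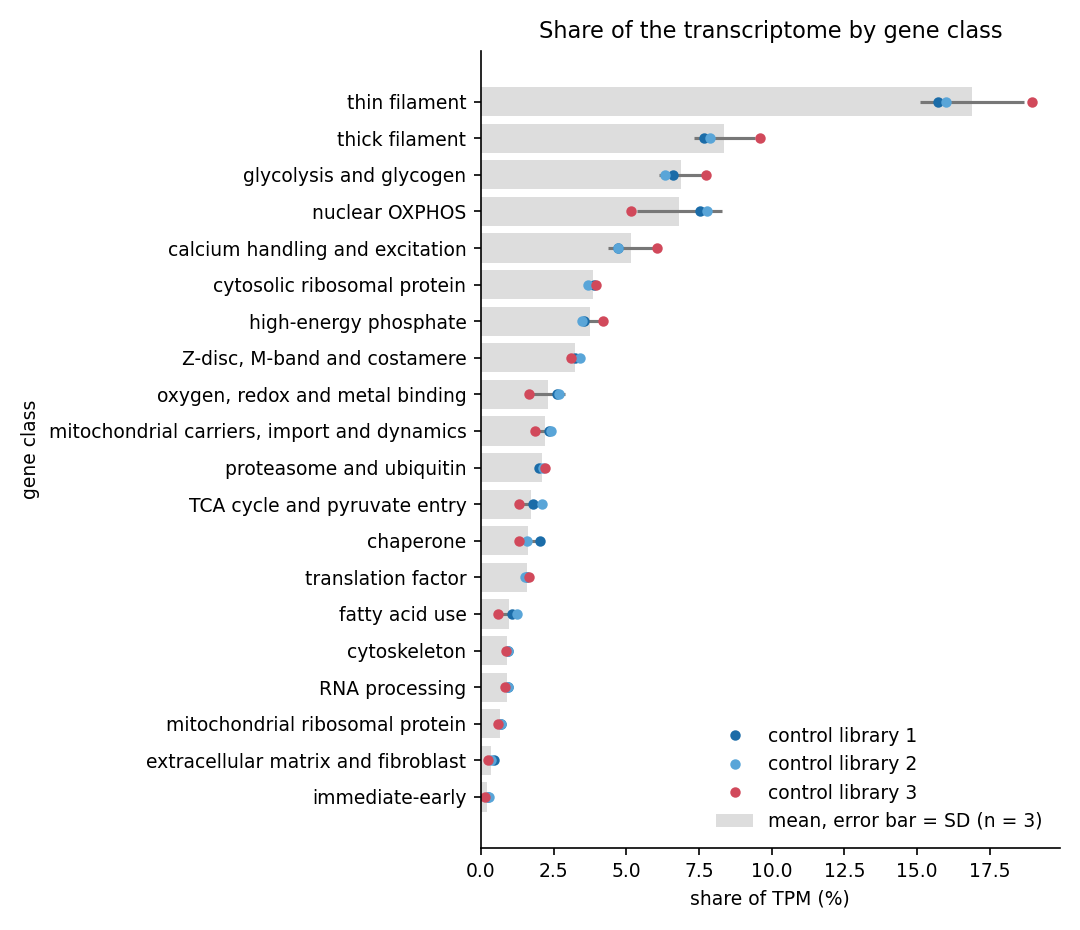
Share of TPM (%, linear axis from 0) of the 20 gene classes with the largest shares, with bars for the mean, error bars for the SD (n = 3) and a point for each control library. Thin filament leads at 16.9%, and library 3 lies to the right for contractile, calcium and glycolytic classes and to the left for nuclear OXPHOS (5.15%).

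Genes on none of the 30 lists held 28.6% ± 1.06 of the TPM. The most abundant of these was *Ndrg2* (2032, 1892 and 1680 TPM), a protein of the NDRG family. *Ybx3*, a cold-shock domain protein that binds RNA and DNA, followed at 1378, 1343 and 2143 TPM. By type, protein-coding genes made up 99.0% of the TPM. Chromosome 7, which carries *Tnnt3*, *Ckm*, *Aldoa*, *Mylpf* and *Atp2a1*, held 21.7% ± 1.93, the largest share of any chromosome. The 50 most abundant genes had a median longest transcript of 1920.5 bases, against 3380.5 bases over the genes with a mean of at least 1 TPM.

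The spread between libraries was read as a CV and as a fold. The median CV was 14.9%, against a median counting error of 3.38%, so most of the spread was larger than counting alone gives. Between libraries 1 and 2 alone, the median CV was 7.83%. Over all 3 libraries, the median CV was 29.4% at 1 to 3 TPM, 9.63% at 30 to 100 TPM and 18.6% for the 95 genes at 1000 TPM or more. These most abundant genes had a median CV of 3.94% between libraries 1 and 2. The common biological coefficient of variation, which edgeR estimates from the counts after allowing for counting error, was 25.5% over 12753 genes.

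**Figure D3:**
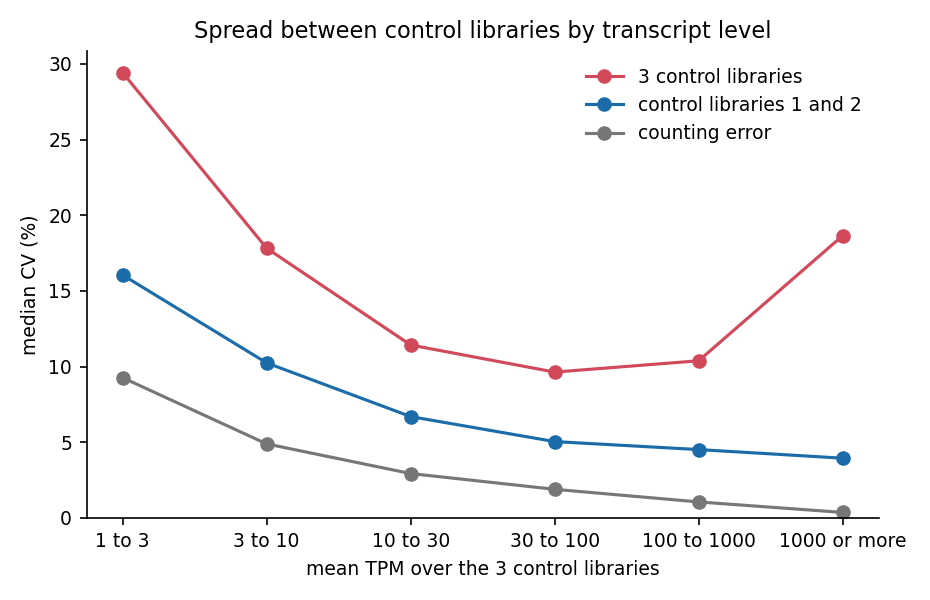
Median CV (%) of genes in bins of mean TPM, for the 3 control libraries, for libraries 1 and 2 alone, and as counting error alone gives. At 1000 TPM or more the 3 libraries have a median of 18.6% and libraries 1 and 2 have 3.94%.

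The highest library was at least 2 times the lowest in 1203 of 11475 genes (10.5%), on TPM + 1. For each such gene, the library farther from the other 2 on the log2 scale was called apart. Library 3 was apart in 922 of them: lower in 855 (7.45% of all genes) and higher in 67 (0.584%). Library 1 was apart in 159 (1.39%) and library 2 in 122 (1.06%). The 855 and 67 depend on the scaling. The median gene was 0.18 lower on the log2 scale in library 3 than in the mean of libraries 1 and 2, and this shift was 0.00036 after TMM normalization of the counts and 0.03 after DESeq2's size factors. With these, 616 genes were lower and 125 higher after TMM (83.1% lower, against 92.7% in TPM), and 561 were lower and 136 higher after size factors (80.5% lower).

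Of the 20 genes with the widest range, 8 were on the slow fibre list. All 15 genes of the slow fibre list were lowest in library 3, under TPM, TMM and size factors alike. In TPM they were lower by 4.28- to 67.1-fold than the mean of libraries 1 and 2. This list also holds *Myh2*, of fast IIa fibres, which gave the 4.28-fold, and the next smallest was *Casq2* at 5.30-fold. Over all 11475 genes, 60.9% were lowest in library 3 in TPM, 40.7% after TMM and 37.5% after size factors. *Myh7* was at 451, 357 and 6.93 TPM, a 58.3-fold difference. *Tnnc1* was at 776, 554 and 9.91 TPM (67.1-fold), *Tnni1* at 266, 201 and 4.06 TPM (57.5-fold) and *Tnnt1* at 909, 701 and 14.1 TPM (57.1-fold). These 3 are the slow troponins C, I and T. The slow light chains *Myl2* (1380, 1154 and 28.9 TPM) and *Myl3* (784, 649 and 15.6 TPM) and the slow tropomyosin *Tpm3* (1272, 973 and 31.1 TPM) differed by 43.8-, 45.8- and 36.0-fold.

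The differences were smaller for the calcium proteins of slow fibres. *Atp2a2*, the slow calcium pump SERCA2, was at 553, 415 and 35.0 TPM, a 13.8-fold difference. *Casq2*, the slow calsequestrin, was at 12.6, 14.2 and 2.52 TPM. *Myh2* and *Myh1*, of IIa and IIx fibres, were lower in library 3 by less still, at 1473, 1937 and 399 TPM and at 3497, 3805 and 773 TPM. Within the heavy chains, *Myh4* made up 78.4%, 76.0% and 94.9% of the TPM, *Myh1* 13.0%, 14.1% and 2.39%, *Myh2* 5.47%, 7.18% and 1.23%, and *Myh7* 1.68%, 1.32% and 0.0214%. Neighbouring heavy chain genes share sequence, and reads from shared parts could have been split between them.

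All 10 fast fibre markers were highest in library 3, under TPM, TMM and size factors, with a summed level of 223454, 226385 and 288604 TPM. In TPM, 2372 of all 11475 genes were highest there. This count was made in TPM only, and TMM and size factors both place library 3 higher than TPM does. The 9 slow fibre markers summed to 6394, 5005 and 146 TPM, so that the mean of libraries 1 and 2 was 39.1 times library 3. In each of 12 families with a slow and a fast form, chosen after the values were seen, the slow form took the smallest share in library 3. For the troponins T, I and C, its share was 2.19%, 1.27% and 3.41% in library 1, and 0.0274%, 0.0169% and 0.0343% in library 3. The slow lactate dehydrogenase subunit *Ldhb* made up 15.6%, 16.7% and 1.29% of *Ldhb* plus *Ldha*.

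**Figure D4:**
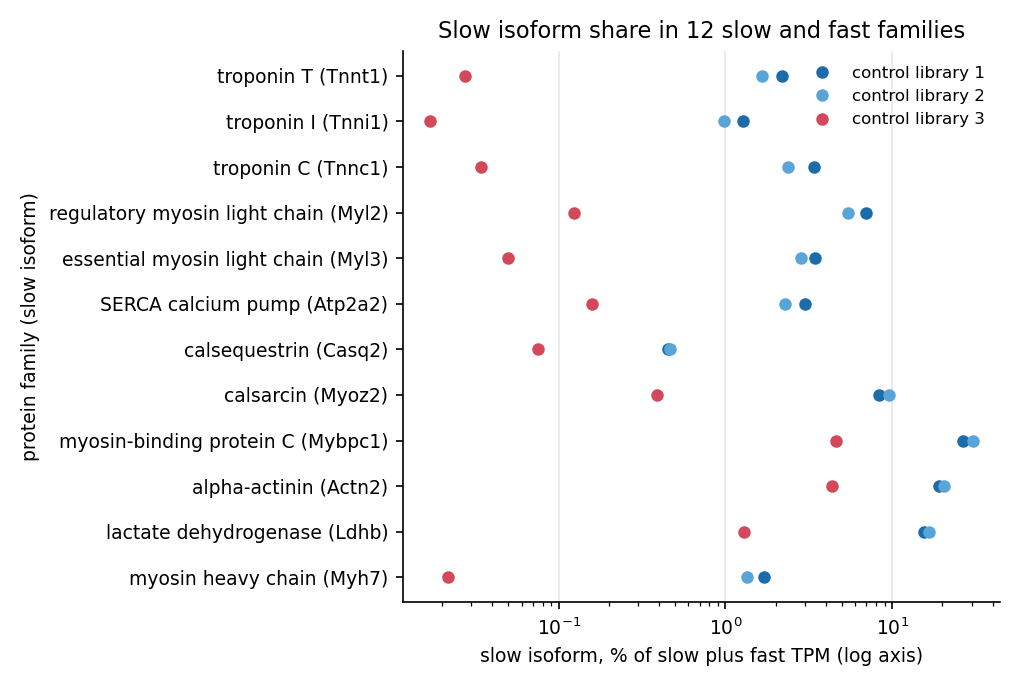
Share of the slow form in slow plus fast TPM (%, log axis) for 12 families, with a point for each control library. In every family library 3 lies lowest, at 0.0274% for troponin T against 2.19% and 1.65% in libraries 1 and 2.

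Markers of cell types other than fibres were also lower in library 3. The 5 erythroid markers summed to 1020, 998 and 122 TPM and were all lowest in library 3. *Hbb-b2*, a beta-globin entry outside this list, went the other way, with 28.5 TPM in library 3 and 0 counts in libraries 1 and 2. The 6 adipocyte markers summed to 108, 120 and 8.60 TPM, with 5 lowest in library 3 and *Lep* at or under 0.47 TPM in each library. The 4 endothelial markers summed to 134, 143 and 64.1 TPM, the 4 smooth muscle markers to 92.6, 112 and 44.0 TPM, and the 5 Schwann cell markers to 21.6, 30.9 and 9.22 TPM, each list with every member lowest in library 3. The 4 fibroblast markers summed to 801, 619 and 354 TPM and the 4 tendon markers to 158, 112 and 61.8 TPM, with 4 of 4 and 3 of 4 lowest in library 3. These marker counts are in TPM only, where 60.9% of all 11475 genes were lowest in library 3. That share was 40.7% after TMM and 37.5% after size factors. The 3 satellite cell markers summed to 14.5, 13.9 and 16.8 TPM, so their sum did not share the order. Of these markers, 1 was lowest and 1 was highest in library 3. The part of these cells in the differences of library 3 was not tested.

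**Figure D5:**
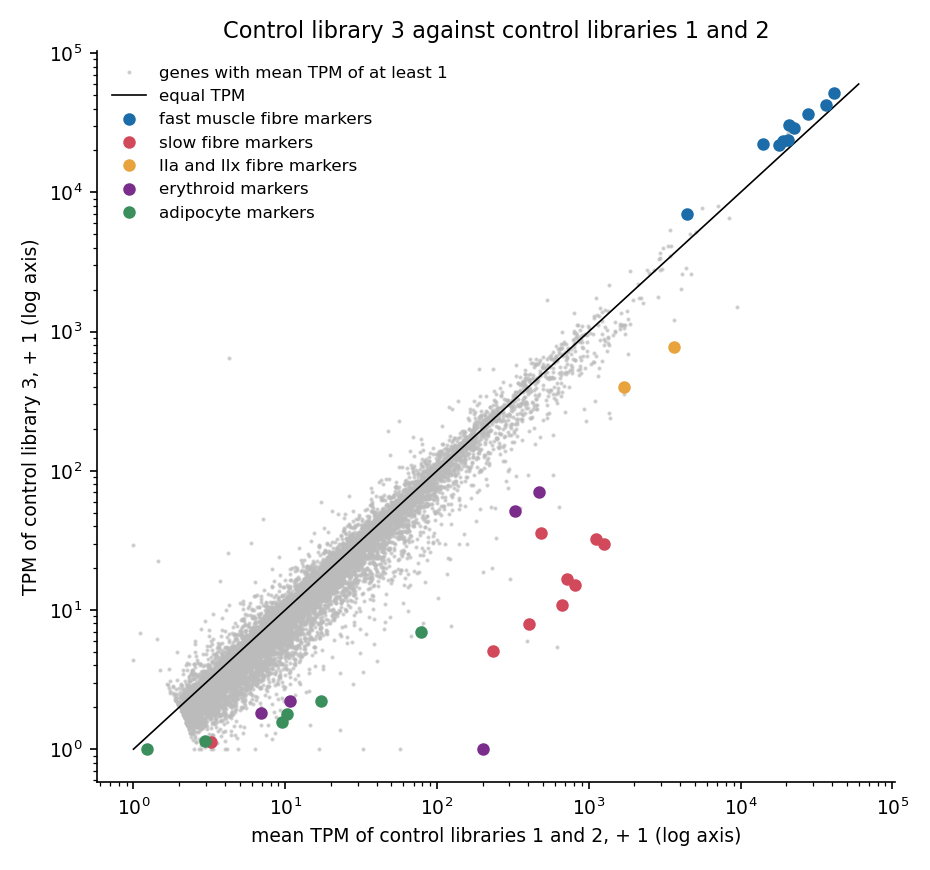
TPM + 1 of library 3 against the mean of libraries 1 and 2 (both log axes), for 11475 genes (grey) and the markers of 5 cell types (colour), with a line at equal TPM. The 9 slow fibre markers lie below the line, by a sum of 39.1-fold, and the 10 fast fibre markers lie above it.

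Library 1 carried its own pattern. *Hspa1a* and *Hspa1b*, the inducible HSP70 chaperones, were at 371, 27.4 and 17.7 TPM and at 432, 25.6 and 18.9 TPM. They share 47.1% of *Hspa1a*'s 100-base windows and reads could have been split between them, and their sum was 803, 53.0 and 36.5 TPM. Of 108 chaperone genes, 18 had a 2-fold range, against 10.5% of all genes. Library 1 was apart in 11 of the 18, against 159 of all 1203 such genes, among them *Hspb1* (601, 264 and 202 TPM) and *Hsp90aa1* (498, 158 and 90.1 TPM), both named after their values were seen. In all 11 library 1 was the highest. *Cish*, a feedback inhibitor of cytokine signalling, was at 116, 4.20 and 14.0 TPM. *Lyz2*, a lysozyme of myeloid cells, was at 62.8, 0.666 and 0 TPM, and made up most of the macrophage sum in library 1 (sums of 117, 25.1 and 22.7 TPM).

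The immediate-early class, genes that respond quickly to activity or handling, had 18 of 29 genes at a 2-fold range (62.1%, against 10.5% of all genes). Library 3 was apart in 10, library 1 in 5 and library 2 in 3, against 922, 159 and 122 of all 1203 such genes. In TPM, 22 of the 29 were lowest in library 3, against 60.9% of all genes, and 2 were highest there. *Nr4a1*, an orphan nuclear receptor, was at 578, 738 and 341 TPM. *Ppargc1a*, the PGC-1alpha coactivator, was at 286, 598 and 154 TPM, and *Fos* at 72.2, 24.1 and 7.83 TPM. Of the clock class, 6 of 18 had a 2-fold range (33.3%, against 10.5% of all genes), with library 3 apart in 5 and library 2 in 1. *Nfil3*, a repressor of clock output, was at 315, 276 and 102 TPM and *Tef*, a factor of clock output, at 114, 98.9 and 115 TPM. Library 2 was highest in *Trim63* and *Pdk4*, given above, and in *Ppargc1a*.

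Some differences lay between near-identical or related genes. *Rps27*, a ribosomal protein gene, was at 632, 597 and 4.44 TPM, and *Rps27rt*, a nearly identical gene, at 5.69, 0.869 and 646 TPM, whereas their sum was 637, 598 and 650 TPM (CV 4.34%). *Amd1* and *Amd2*, of polyamine synthesis, were at 499, 279 and 4.94 and at 680, 384 and 1677 TPM, with a sum of 1179, 663 and 1682 TPM. The sum therefore still varied by 2.54-fold. *Hbb-bt*, an adult beta-globin, had 211 and 187 TPM in libraries 1 and 2 and 0 counts in library 3, where *Hbb-b2*, another beta-globin entry, had 28.5 TPM against 0 counts in the other 2. How reads were divided between such copies is uncertain, and the pairs were chosen after the values were seen. The sequence shared by *Hbb-bt* and *Hbb-b2* was not measured. Whether library 3 has the same genetic background as libraries 1 and 2 was not tested. *Gm13363* and *Dpm1-adnp* were also at 0 counts in library 3, against 39.1 and 72.5 TPM and 10.8 and 20.7 TPM in libraries 1 and 2.

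Connective tissue, housekeeping and stress classes took small shares. Extracellular matrix and fibroblast genes held 0.440%, 0.344% and 0.230%, and 78 of 93 were lowest in library 3 (68 after TMM, 66 after size factors), against 60.9%, 40.7% and 37.5% of all genes. *Dcn*, decorin, which binds collagen fibrils, led them at 687, 538 and 303 TPM. Chaperones held 2.02%, 1.59% and 1.29%. *Hspa8*, the constitutive HSP70, was at 2374, 1893 and 1734 TPM, and *Cryab*, a small heat shock protein of the Z-disc, at 2151, 1498 and 684 TPM. Both followed the order of their class, highest in library 1 and lowest in library 3. Cytoskeletal genes held 0.930%, 0.915% and 0.849%, led by *Tuba4a*, an alpha-tubulin (983, 998 and 1093 TPM). RNA processing genes held 0.917%, 0.924% and 0.838%, with a median CV of 8.86%, and their most abundant member *Fxr1*, an RNA-binding protein, had a CV of 2.00% (464, 454 and 446 TPM).

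Markers of vessels, fat and blood stood at moderate levels. *Vegfa*, a growth factor for vessels that muscle fibres also make, was at 339, 385 and 167 TPM. *Aqp1*, a water channel of capillaries, was at 286, 384 and 177 TPM. *Fabp4*, of fat cells and capillaries, was at 525, 719 and 359 TPM, whereas *Scd1*, a fatty acid desaturase, was at 148, 98.5 and 6.70 TPM. All 4 were lowest in library 3, and *Scd1* by the widest margin. *Hbb-bs* and *Hba-a1*, adult globins of red cells, were at 497, 441 and 69.7 TPM and at 291, 360 and 50.5 TPM.

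Other differences were in single genes of regulation and metabolism. *Nnt*, the transhydrogenase of the inner mitochondrial membrane, named after its values were seen, was at 74.7, 83.8 and 7.08 TPM. The labels name the strain of all 3 libraries as C57BL/6, and whether they share the same genetic background was not tested. *Myf6*, the myogenic factor MRF4, was at 136, 138 and 315 TPM, higher in library 3, and *Mstn*, myostatin, which restrains muscle growth, at 51.9, 84.5 and 173 TPM. *Fndc5*, the precursor of irisin, was lower there, at 80.5, 90.0 and 21.9 TPM. *Mef2c*, a muscle transcription factor, varied little, at 251, 269 and 228 TPM. *H19*, an imprinted long non-coding RNA, was at 764, 939 and 531 TPM.

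The steadiest genes at 100 TPM or more were *Ensa*, a phosphatase regulator (198, 198 and 197 TPM, CV 0.249%), *Zfp91* (CV 0.397%), the proteasome ATPase *Psmc2* (CV 0.474%), and *Csnk2a1*, a casein kinase 2 subunit (CV 0.487%). They were chosen for their low CV, which is thus a description. The CVs of these genes and of the reference genes below are in TPM only. TMM and size factors both place library 3 higher than TPM does. Among genes often used as qPCR references, chosen after the values were seen, *Rplp0* had a CV of 2.52% and *Ppia* 2.57%. *Gapdh* had 13.4% (5754, 4390 and 5203 TPM), *Actb* 18.4%, *B2m* 29.8% and *Gusb* 34.9%. The difference of library 3 from the other 2 was almost flat over GC content (Spearman rho 0.00384 over 11090 genes, which come from the same 3 libraries and do not count as replicates). The share of genes with a 2-fold range was higher at higher GC content, at 7.18%, 9.52%, 10.97% and 12.6% in 4 equal groups of genes from low to high GC.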

How the data were processed

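RNA-seq of 3 gastrocnemius libraries labelled *Sirt6* flox/flox was analysed, and the 3 libraries labelled with *Myl1-Cre* were read for *Sirt6* only. The methods describe poly-A selection and paired-end reads of 100 bp. The submitters' processing notes name HISAT2 2.1.0, Bowtie2 2.3.4.1 and StringTie 2.1.3b on mm10 (GRCm38), while the reporting summary names STAR, and the labels and the methods name different library kits. The authors deposited read counts per gene as whole numbers without normalization between libraries, and TPM values scaled by gene length to a fixed sum in each library. FPKM columns were not used. Totals lay between 44845763 and 63016899 counts.

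Shares were computed from TPM with Python 3.11.15 and pandas 2.3.3. Genes with a mean of at least 1 TPM entered the CV and the 2-fold count, the latter on TPM + 1. TMM factors and the common biological coefficient of variation came from edgeR 4.0.16 (filterByExpr, intercept only) and size factors from DESeq2 1.42.0, in R 4.3.3. The estimate was tested on simulated data. With 1 group no test was made. Genes were assigned to 30 lists, each to its first match. Named genes are the 25 most abundant, the top 3 of each list, the top 10 on no list, the 20 most variable at 10 TPM or more, the 10 steadiest at 100 TPM or more, cell type markers, *Sirt6* and the immediate-early, clock and slow fibre lists, and others are said to be chosen after their values were seen. The results of 2 genes are not reported here. The members and lists were chosen with earlier results of these data known. Coordinates and promoters are NCBI RefSeq's on GRCm38.p6, with coordinates matched by gene identifier for 24458 of 24532 genes.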

Additional observations from a re-analysis of the deposited data

How the results depend on the processing

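Of the results above, 54 of 74 values under another setting stayed close to the main one (within 1 SD, or within 1.5 times for counts and coefficients of variation) and 20 did not. As shares of deposited counts, which are not per length, the 10 most abundant genes held 23.6%, thick filament 11.2%, thin filament 9.67%, nuclear OXPHOS 2.99% and cytosolic ribosomal proteins 1.45%, and 143 genes, in place of 92 over the mean of the libraries, held 50%; long genes weigh more there. Without *Tnnt3*, thin filament held 13.0% and cytosolic ribosomal proteins 4.03%. At a mean of at least 10 TPM, which tests fewer genes, 549 varied by 2-fold, with library 1, 2 and 3 apart in 74, 55 and 420. With a pseudocount of 0.1 TPM these were 1938, and 275, 191 and 1472. With no filter beyond 1 count the median CV was 22.8%. Leaving out each library in turn, the top 10 share ranged from 25.9% to 29.7%, thick filament from 7.76% to 8.73%, thin filament from 15.9% to 17.5%, glycolysis and glycogen from 6.46% to 7.17%, nuclear OXPHOS from 6.35% to 7.66% and cytosolic ribosomal proteins from 3.79% to 3.93%. The number of genes holding 50% ranged from 80 to 110, the 2-fold genes from 160 to 862, the median CV from 7.83% to 15.1% and the common coefficient from 15.9% to 30.4%. In each of these last 3, the lowest value was the one without library 3. Without library 3, thick filament held 7.76%, thin filament 15.9%, glycolysis and glycogen 6.46%, nuclear OXPHOS 7.66% and cytosolic ribosomal proteins 3.79%. No paired analysis was possible because the description covers 1 group and comes from no test. The depth limits genes of 1 to 3 TPM, where the median counting error was 9.26%.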
